A study of Mus musculus with 15 samples.

Results

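Integrins and laminins are the receptors and the matrix proteins through which cells of the vessel wall hold on to their basement membrane. The genes described here are those whose symbol has the form of an integrin subunit (Itga or Itgb) or of a laminin chain (Lama, Lamb or Lamc). Each gene is represented by its brightest probe set, judged by the mean of the 15 arrays. The pattern took 40 of the 22180 genes measured. They comprise 16 integrin subunits of wall cells, 10 integrin subunits of leukocytes and platelets, 10 laminin chains, and 4 genes named after integrins that encode no subunit. Itga10 was not analysed here.

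RNA was taken from the aorta of DBA/2NCrl mice, an inbred strain, aged 8 weeks when a 5-day feeding period on 1 of 2 diets began. The groups were 4 arrays of abdominal aorta on a high-phosphate diet (HPD, 20.2 g of phosphorus per kg), 4 of abdominal aorta on standard chow (SCD, 7.0 g per kg), 3 of thoracic aorta on HPD and 4 of thoracic aorta on SCD. The arrays are labelled as biological replicates, but the labels give neither sex nor whether 1 mouse gave both segments. The study asks how dietary phosphate changes gene expression in the aorta, a vessel prone to calcify when phosphate is high.

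An integrin is a pair of an alpha and a beta subunit that spans the cell membrane, binds matrix outside and the actin skeleton inside. Alpha1, alpha2 and alpha11 with beta1 bind collagens, alpha3, alpha6 and alpha7 bind laminins, and alpha5, alpha8 and alphav bind proteins with an Arg-Gly-Asp motif such as fibronectin and nephronectin. A laminin is a trimer of an alpha, a beta and a gamma chain, and the trimers with alpha4 or alpha5 are the main laminins of the vascular basement membrane. The beta2 and beta7 integrins instead serve leukocytes, which use them to stick to endothelium and to each other, and alphaIIb is the platelet fibrinogen receptor subunit.

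Values are log2 intensities, and no read counts or detection calls exist, so the number of arrays limits the precision. A change is a difference of log2 group means with its standard error from limma, and a gene was called where its p, adjusted by Benjamini and Hochberg's method across the 22180 genes, was under 0.05. The smooth muscle genes Myh11, Acta2 and Tagln lay at or above the 97th percentile of mean intensity. The arrays also held other tissue in unequal amounts. The mean of 13 T and NK cell markers was 8.08, 8.04, 6.18 and 7.74 in abdominal HPD arrays 1 to 4, against 5.72, 7.31, 6.07 and 7.78 in abdominal SCD arrays 1 to 4, and 5.63 to 5.86 in the 7 thoracic arrays. So 5 abdominal arrays, 3 on HPD and 2 on SCD, stood apart. The mean of 10 brown adipocyte markers was 6.94 to 7.44 in abdominal HPD arrays against 8.40 to 8.79 in abdominal SCD arrays, and 7.70 to 8.23 in thoracic HPD arrays against 8.79 to 9.01 in thoracic SCD arrays. Hepatocyte markers averaged 8.43 and 10.6 in abdominal HPD arrays 3 and 4 and at most 6.52 elsewhere. In bulk tissue fewer cells of a type and less RNA per cell cannot be told apart.

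Promoters were read for 26 of the 40 genes from RefSeq (mouse build GRCm38.p6, the C57BL/6J reference and not DBA/2NCrl), as the 250 bases before the annotated start. Those of 4 integrin genes called in the results below are shown as examples. Lama4 and Itga6 have no window among the 26, and the windows of Itga2, Itga9 and Itgb8 were read but are not shown. Itga1 and Itga11 fell on HPD in the abdominal aorta, and Itga8 and Itgb5 were among the subunits higher in the thoracic aorta on both diets. Capitals mark GAGGAA, an ETS-type element, or GGGCGG, a GC box, on either strand, and no marked matches overlap.
Itga1 (chr13:115101965-115102214, minus strand): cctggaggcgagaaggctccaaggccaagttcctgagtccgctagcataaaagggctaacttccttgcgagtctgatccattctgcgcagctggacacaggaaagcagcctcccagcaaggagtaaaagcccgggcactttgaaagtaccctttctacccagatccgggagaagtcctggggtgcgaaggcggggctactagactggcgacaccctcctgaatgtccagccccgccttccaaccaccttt
Itga11 (chr9:62677605-62677854, plus strand): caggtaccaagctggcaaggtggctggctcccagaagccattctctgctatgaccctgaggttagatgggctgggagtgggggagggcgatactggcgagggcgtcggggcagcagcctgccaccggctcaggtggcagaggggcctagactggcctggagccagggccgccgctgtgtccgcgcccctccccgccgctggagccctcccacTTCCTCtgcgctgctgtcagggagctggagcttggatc
Itga8 (chr2:12301945-12302194, minus strand): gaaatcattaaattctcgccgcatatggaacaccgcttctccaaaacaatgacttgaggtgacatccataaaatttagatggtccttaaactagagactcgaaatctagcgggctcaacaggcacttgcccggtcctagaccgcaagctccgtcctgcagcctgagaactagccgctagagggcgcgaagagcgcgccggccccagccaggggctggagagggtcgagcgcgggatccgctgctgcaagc
Itgb5 (chr16:33829415-33829664, plus strand): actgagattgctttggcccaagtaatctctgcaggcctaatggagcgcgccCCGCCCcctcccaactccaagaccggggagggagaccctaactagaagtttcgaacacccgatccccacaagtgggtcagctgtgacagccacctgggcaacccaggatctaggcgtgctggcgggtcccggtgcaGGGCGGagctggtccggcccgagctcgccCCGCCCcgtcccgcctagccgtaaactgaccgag
The Itga11 window holds GAGGAA at 1 place and the Itgb5 window holds GGGCGG at 3, while the other 2 windows hold neither. GAGGAA was present for 14 of 26 genes and in 23.3% of 32851 single RefSeq promoters of the same length. GGGCGG was present for 9 of the 26 genes and in 32.7% of all. Itga3, Itgb6 and Lamb3 have 2 windows each and count if either holds the motif, so the shares by gene and by promoter are not on the same footing. TGACTCA, the AP-1 element, was found in Itgax and in 4.46% of all. The CArG box of serum response factor was found in Itgb6 and Lama2 and in 1.47% of all. TATAAA (12.4% of all) and the palindromic glucocorticoid response element (0.00913% of all) were found in 0 of the 26. These are matches of letters within the windows and show no binding.

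In the abdominal aorta 4 of the 40 genes were lower on HPD and 0 were higher, where 7.01% of all genes were called, 5.06% lower and 1.95% higher. The 4 were the laminin chain Lama4, the collagen receptor subunits Itga1 and Itga11 and the laminin receptor subunit Itga6. Their falls were 1.27-fold to 1.52-fold. The median change over the 16 wall integrins was -0.22, with 13 of 16 below 0, against -0.01 over all genes. The 10 laminin chains had a median of -0.12 with 9 below 0, and the 10 leukocyte and platelet integrins a median of 0.16 with 9 above 0 and 0 called.

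**Figure D1:**
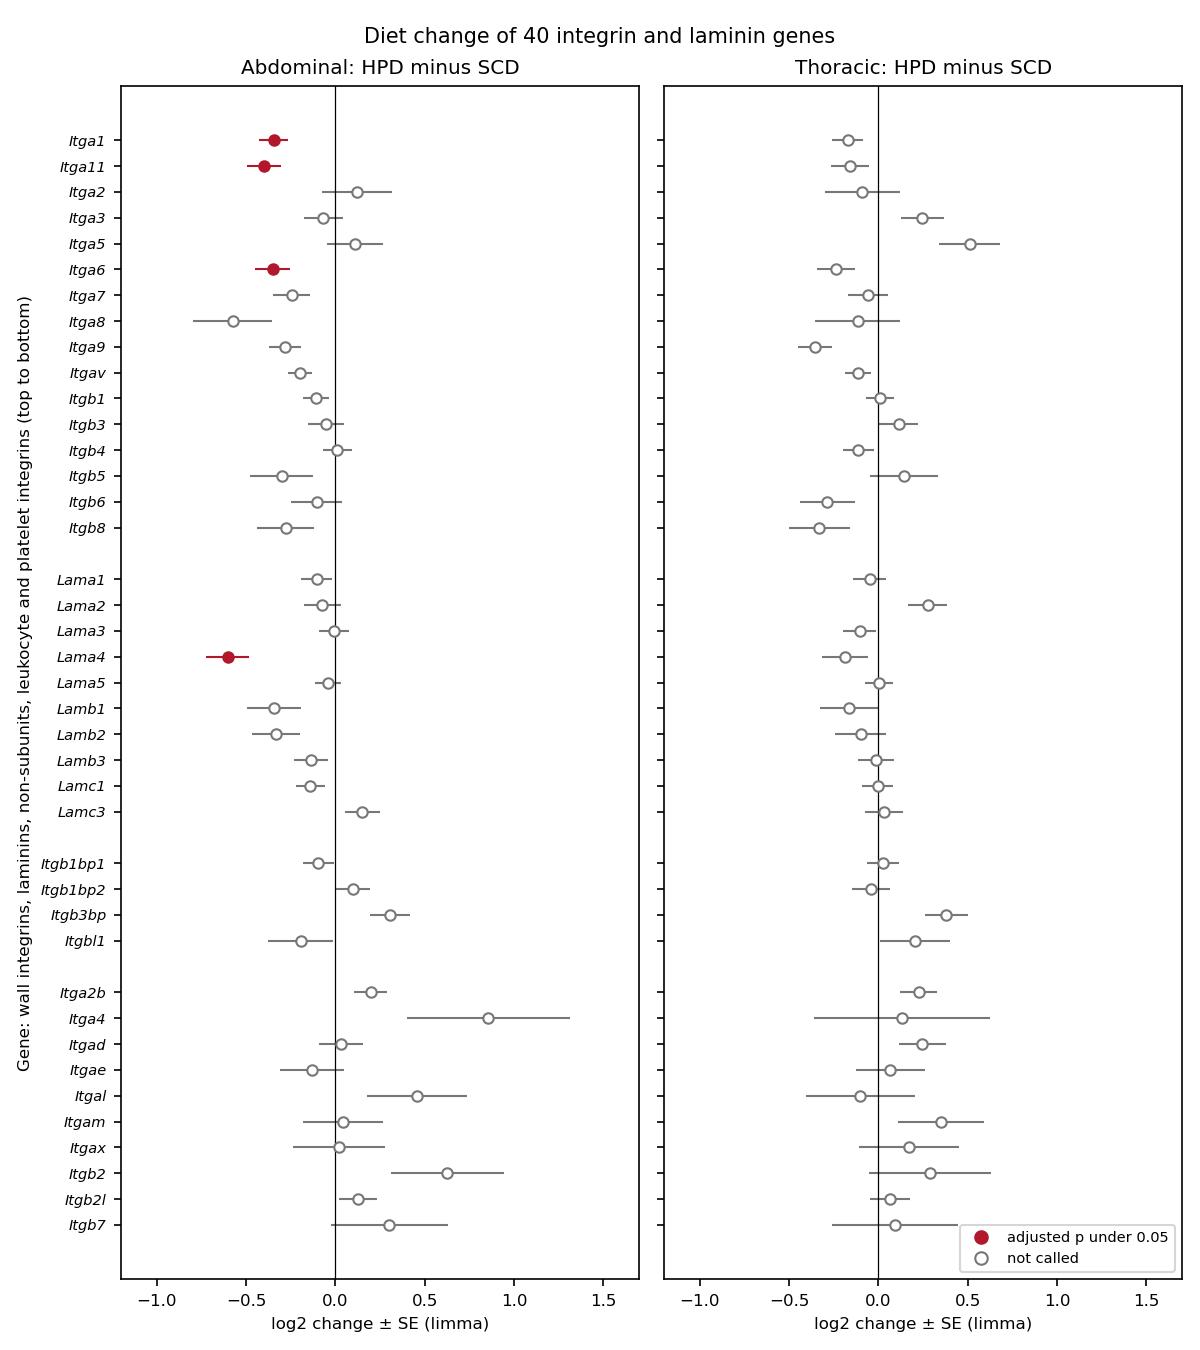
Change of each of the 40 genes on the high-phosphate diet, as HPD minus SCD on the log2 scale with limma's standard error as bars, in the abdominal (left) and thoracic (right) aorta. Filled red points passed an adjusted p of 0.05; there are 4 in the abdominal panel, all below 0, and 0 in the thoracic panel.

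Lama4 encodes the alpha4 chain of the laminin made by endothelial cells, smooth muscle and fat cells. It lay at 9.07, 8.74, 9.27 and 8.82 in abdominal HPD arrays, against 9.71, 9.78, 9.42 and 9.40 in abdominal SCD arrays. Every HPD array was below every SCD array, and the change was -0.60 ± 0.119 (adjusted p = 0.00535), a 1.52-fold fall. It was called with any 1 array left out. It was -0.30 ± 0.159 (adjusted p = 0.556) without the 5 arrays rich in T and NK cell markers, which leaves abdominal HPD array 3 alone in its group, its spread assumed to be that of the other groups. Without the other 3 abdominal arrays it was -0.72 ± 0.132 (adjusted p = 0.0114). With the adipocyte and brown adipocyte marker means as covariates it was -0.12 ± 0.287 (adjusted p = 0.957), in a fit that called 0 of all 22180 genes for this comparison.

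Itga1, the alpha1 collagen receptor subunit abundant in smooth muscle, lay at 9.54, 9.55, 9.88 and 9.52 in abdominal HPD arrays, against 10.1, 9.95, 9.98 and 9.85 in abdominal SCD arrays. HPD array 3 reached into the SCD range and the other HPD arrays lay below it. The change was -0.35 ± 0.0808 (adjusted p = 0.0163). Itga11, the alpha11 subunit of fibroblast collagen receptors, lay at 5.70, 5.39, 5.46 and 5.36 in abdominal HPD arrays, against 5.94, 6.03, 5.77 and 5.77 in abdominal SCD arrays. The groups did not overlap, and the change was -0.40 ± 0.0968 (adjusted p = 0.0204). The third collagen receptor subunit, Itga2, changed by 0.12 ± 0.195 and was not called.

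Itga6 pairs with beta1 or beta4 as a laminin receptor and marks endothelium. It lay at 9.03, 8.95, 8.92 and 8.78 in abdominal HPD arrays, against 9.40, 9.33, 9.11 and 9.24 in abdominal SCD arrays, again without overlap. The change was -0.35 ± 0.0966 (adjusted p = 0.0386). Of the laminin receptor subunits Itga3, Itga7 and Itgb4 none was called, with changes of -0.07, -0.25 and 0.01. The Itga1 call was lost on leaving out 4 of the 15 arrays in turn (adjusted p up to 0.067), the Itga11 call with 4 (up to 0.0704) and the Itga6 call with 8 (up to 0.136). Without the 5 arrays rich in T and NK cell markers, with the same assumption for the lone HPD array, the changes were -0.15, -0.39 and -0.34 for Itga1, Itga11 and Itga6, and none was called. Without abdominal HPD arrays 3 and 4, those high in hepatocyte markers, Lama4 (-0.67, adjusted p = 0.00767) and Itga1 (-0.42, adjusted p = 0.0057) were called, and Itga11 (-0.33, adjusted p = 0.118) and Itga6 (-0.28, adjusted p = 0.176) were not. With the adipocyte means as covariates Itga1 was at 0.39 and Itga6 at 0.04, and Itga11 at -0.80, none called. Beside these falls 6 of 10 fibroblast markers, 4 of 10 adipocyte and 9 of 10 brown adipocyte markers were lower on HPD in the abdominal aorta. Of 11 endothelial markers 3 were lower and 1 higher, with means of 7.71 to 7.90 in abdominal HPD arrays against 7.83 to 8.10 in abdominal SCD arrays. All 10 smooth muscle markers were below 0 with a median of -0.19 and 1 called, and their mean was 8.18 to 8.88 in abdominal HPD arrays against 8.28 to 8.90 in abdominal SCD arrays. The part of the fibroblast, endothelial and smooth muscle markers in these falls was not tested.

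**Figure D2:**
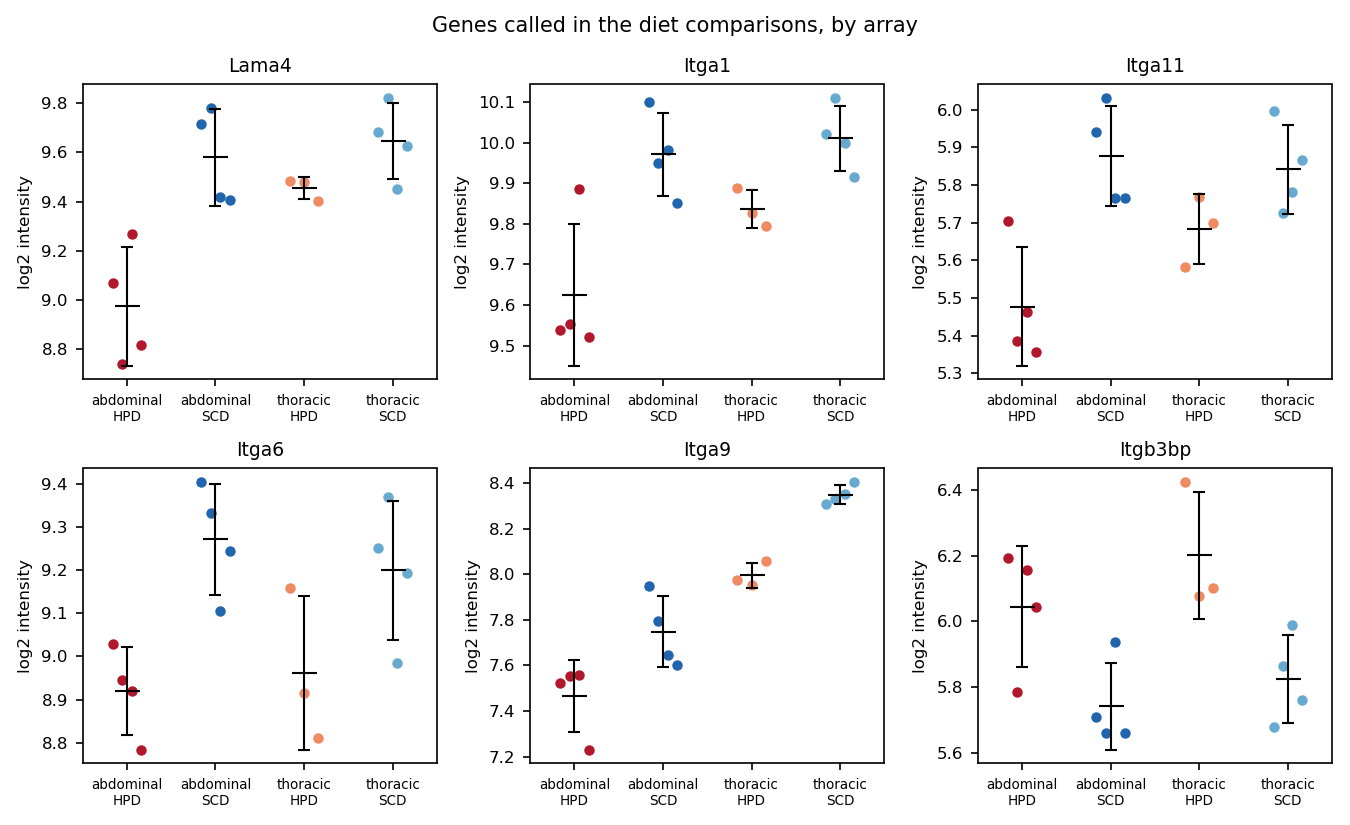
Log2 intensity in each array of the 6 genes called in the abdominal or the averaged diet comparison, with group mean and SD as black marks. In the abdominal panels of Lama4, Itga11, Itga6 and Itga9 all HPD points lie below all SCD points, and Itga1 has 1 HPD point, array 3, within the SCD range.

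The other wall integrins and laminins were not called in the abdominal aorta. Itga9, whose alpha9 beta1 integrin binds tenascin-C and osteopontin, lay at 7.23 to 7.56 in abdominal HPD arrays against 7.60 to 7.95 in abdominal SCD arrays. The groups did not overlap, and the change was -0.28 ± 0.0875 (adjusted p = 0.0682). Itgav, the alphav subunit shared by several receptors, likewise did not overlap and changed by -0.20 ± 0.0687 (adjusted p = 0.105), while its dimmer second probe set changed by -0.03. Groups failed to overlap, with HPD lower, for 5 of the 40 genes and for 7.75% of all genes, and with HPD higher for 0 of the 40 and 4.12% of all genes. Itga8 had the second largest difference in size among wall and laminin genes, -0.57 ± 0.221 (adjusted p = 0.149), with HPD arrays at 9.68, 9.74, 10.8 and 9.93 against 11.1, 10.6, 10.8 and 10.1 in SCD arrays. Of the laminin chains with the lowest changes after Lama4, Lamb1 was at -0.34 ± 0.153 and Lamb2 at -0.33 ± 0.132, both above an adjusted p of 0.05. Lamc1, the gamma chain common to most laminins, was at -0.14 ± 0.0821.

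In the thoracic aorta 0 of the 40 genes were called, where 2.47% of all genes were, 1.39% higher and 1.08% lower. The unadjusted p was under 0.05 for 6 of the 40. The medians were -0.11 over the wall integrins and -0.03 over the laminins, against -0.01 over all genes. Itga9 had the smallest adjusted p, with 7.97, 7.95 and 8.06 in thoracic HPD arrays against 8.31, 8.33, 8.35 and 8.41 in thoracic SCD arrays. All HPD arrays were lower and the spread within each group was small, and the change was -0.35 ± 0.0945 (adjusted p = 0.0639). Itga5, the alpha5 fibronectin receptor subunit, lay at 7.18, 7.65 and 7.49 in thoracic HPD arrays against 7.00, 7.12, 6.70 and 6.92 in thoracic SCD arrays. The groups did not overlap, and the difference of 0.51 ± 0.169 did not pass (adjusted p = 0.145). Lama2, the alpha2 laminin chain of muscle, differed by 0.28 ± 0.11 (adjusted p = 0.254) with all HPD arrays above all SCD arrays. Lama4 differed by -0.19 ± 0.128 (adjusted p = 0.596). In all 4 of the 40 genes had HPD wholly above SCD and 3 wholly below, against 7.09% and 6.67% of all genes.

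The diet changes of the segments were not shown to differ. The difference between them, abdominal change minus thoracic change, passed for 0 of the 40 and for 0 of all genes by limma, and 2 of the 40 had an unadjusted p under 0.05. These were Lama4, at -0.42 ± 0.175 (adjusted p = 0.879), and Lama2, at -0.35 ± 0.15 (adjusted p = 0.879). Among the wall integrins the interval on the difference was wide for Itga8 (-1.15 to 0.24) and Itgb5 (-0.99 to 0.11).

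Averaged over both segments, 6 of the 40 genes were called, where 10.7% of all genes were, 6.18% lower and 4.53% higher. Lower on HPD were Itga9 at -0.32 ± 0.0644 (adjusted p = 0.00418), Lama4 at -0.40 ± 0.0873 (0.00745), Itga1 at -0.26 ± 0.0594 (0.00963), Itga6 at -0.29 ± 0.0711 (0.0131) and Itga11 at -0.28 ± 0.0712 (0.0186). Itgb3bp was higher at 0.34 ± 0.0827 (adjusted p = 0.0135). It encodes a centromere protein that was named for binding the beta3 tail, and is no integrin. It lay at 6.19, 5.78, 6.16 and 6.04 in abdominal HPD arrays against 5.71, 5.66, 5.94 and 5.66 in abdominal SCD arrays, and at 6.42, 6.08 and 6.10 in thoracic HPD arrays against 5.68, 5.86, 5.99 and 5.76 in thoracic SCD arrays. The thoracic groups did not overlap and the abdominal ones did. The adipocyte covariates ended all 6 calls, in a fit that called 0 of all genes.

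Leukocyte integrins varied widely between abdominal arrays of the same diet. Itga4, the alpha4 subunit that binds VCAM-1, lay at 8.96, 9.06, 6.84 and 8.59 in abdominal HPD arrays, against 6.76, 7.88, 6.70 and 8.69 in abdominal SCD arrays. The 5 arrays with high T and NK cell markers were the 5 highest for Itga4 and the diet groups overlapped. The difference of 0.86 ± 0.457 was not called (adjusted p = 0.323). Itgal, the LFA-1 alpha subunit, lay at 7.19, 7.14, 5.77 and 6.75 in abdominal HPD arrays against 5.71, 6.51, 5.91 and 6.90 in abdominal SCD arrays. Its beta partner Itgb2 lay at 7.96, 7.86, 6.56 and 7.60 against 6.28, 7.25, 6.34 and 7.61 in the same order. For Itga4, Itgal, Itgb2, Itgb7 and Itgax the same 5 arrays were the 5 highest of the 8 abdominal ones. Itgax, a subunit of dendritic cells and macrophages, was at 6.11 to 6.64 in these 5 arrays and 5.15 to 5.67 in the other 3. The same arrays were also wholly above the other 3 for B and plasma cell markers (6.62 to 7.7 against 5.46 to 6.12). So they were for lymph node stroma (9.33 to 9.79 against 7.07 to 8.75) and neutrophil markers (5.37 to 7.29 against 5.06 to 5.25). Macrophage markers overlapped (7.72 to 8.05 against 7.43 to 7.77). Averaged over both segments 6 of 12 macrophage markers were higher on HPD, against 4.53% of all genes. The part of these markers was not tested.

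Abdominal HPD array 3 had the lowest T and NK cell mean of its group. Leaving it out made 8 of the 40 genes pass in the abdominal diet comparison, 3 higher and 5 lower. That fit called 2249 of all 22180 genes, against 1554 with every array, and its abdominal HPD arrays were all high in T and NK cell markers. Itga4 was then higher by 1.36 (adjusted p = 0.0276), Itgal by 0.77 (0.0398) and Itgb2 by 0.94 (0.0432). The T and NK cell markers themselves had a median change of 0.89 in the abdominal aorta, with 0 of 13 called. Of 10 leukocyte and platelet integrins 0 were called in either segment or on average. Itgam, the Mac-1 alpha subunit of myeloid cells, was also higher in the 5 arrays (6.71 to 6.90) than in the other 3 abdominal ones (6.22 to 6.34). It reached 7.47, 7.05 and 6.99 in thoracic HPD arrays and 6.38, 6.46, 7.51 and 6.94 in thoracic SCD arrays, where those markers were low. Itga2b, of platelets, was at 6.14, 6.37 and 6.27 in thoracic HPD arrays against 5.91, 6.10, 5.93 and 6.19 in thoracic SCD arrays, a difference of 0.22 ± 0.102 (adjusted p = 0.342).

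**Figure D3:**
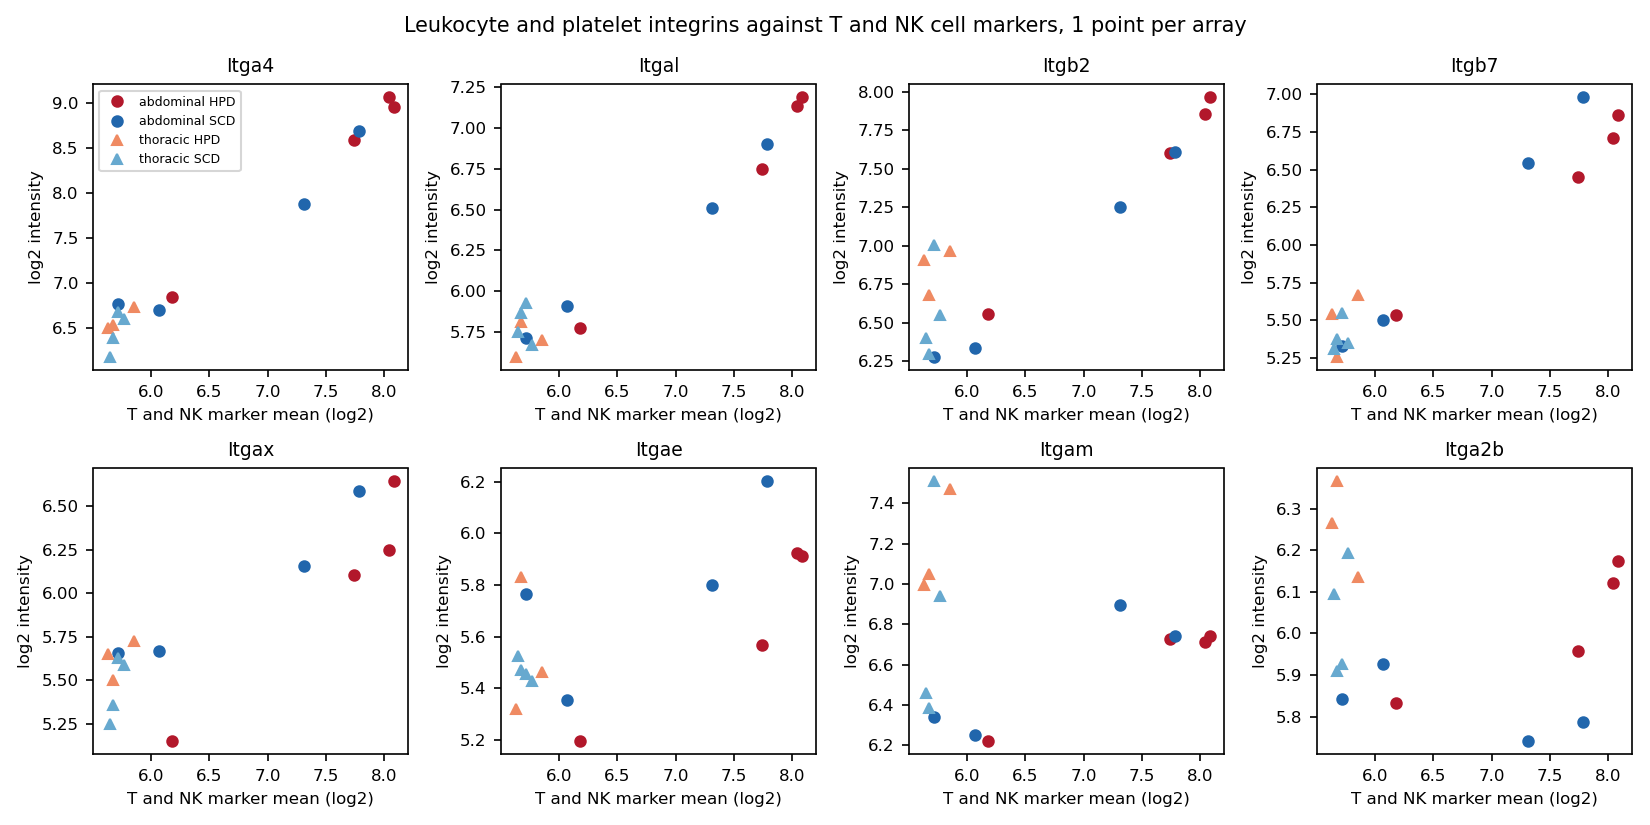
Log2 intensity of 8 leukocyte and platelet integrin subunits in each array against that array's mean of 13 T and NK cell markers. The 5 abdominal arrays above 7.3 on the horizontal axis are also the highest for Itga4, Itgal, Itgb2 and Itgb7, whereas Itgam and Itga2b are as high in thoracic arrays (triangles) with low marker means.

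Between segments more members differed. On chow 7 of the 40 genes were called, where 4.78% of all genes were, 1.76% higher and 3.02% lower in the thoracic aorta. Higher in the thoracic aorta were Itga8, Itgb5, Itga9, Lamc3 and Itgb1bp2, and lower were Itga2 and Itgb8. In all 7 the thoracic and abdominal SCD arrays did not overlap. Thoracic arrays lay wholly higher for 8 of the 40 genes and wholly lower for 4, against 6.01% and 5.97% of all genes. The median over the 40 genes was 0.04, against 0.03 over all genes.

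Itga8, the alpha8 subunit that binds nephronectin and is strong in smooth muscle, lay at 11.5, 11.4, 11.5 and 11.6 in thoracic SCD arrays against 11.1, 10.6, 10.8 and 10.1 in abdominal SCD arrays. The thoracic arrays were close together and the abdominal ones spread over about 1 log2 unit. The difference was 0.88 ± 0.221 (adjusted p = 0.0328). Itgb5, a beta partner of alphav, lay at 9.28, 9.28, 9.44 and 9.31 in thoracic SCD arrays against 9.01, 8.55, 8.62 and 8.14 in abdominal SCD arrays, a difference of 0.75 ± 0.176 (adjusted p = 0.0231). Itga9 differed by 0.60 ± 0.0875 (adjusted p = 0.00104), with thoracic SCD arrays at 8.31 to 8.41 against 7.60 to 7.95 in abdominal SCD arrays.

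Among the other 4, Itgb8 and Itga2 were lower in the thoracic aorta. Itgb8, whose alphav beta8 integrin binds latent TGF-beta, lay at 6.87, 6.62, 6.77 and 6.97 in thoracic SCD arrays against 7.41, 7.18, 8.01 and 7.61 in abdominal SCD arrays, a difference of -0.74 ± 0.159 (adjusted p = 0.0136). Itgav itself differed by -0.08 ± 0.0687, with an interval of -0.22 to 0.07. So beta5 was higher and beta8 lower while the shared alphav subunit was not called. Itga2, the alpha2 collagen receptor subunit, lay at 6.40, 6.08, 6.32 and 6.59 in thoracic SCD arrays against 6.99, 7.25, 7.52 and 7.88 in abdominal SCD arrays, a difference of -1.07 ± 0.195 (adjusted p = 0.00509). Lamc3, a laminin gamma chain, was at 5.77, 5.74, 5.68 and 5.76 in thoracic SCD arrays against 5.51, 5.26, 5.08 and 5.33 in abdominal SCD arrays (0.44 ± 0.0983, adjusted p = 0.0173). Itgb1bp2, which encodes melusin, a protein of striated muscle, lay at 7.18, 6.83, 7.30 and 7.11 in thoracic SCD arrays against 6.39, 6.39, 6.17 and 6.31 in abdominal SCD arrays (0.79 ± 0.0986, adjusted p = 0.000338). The mean of 11 cardiac muscle markers was 7.69 to 8.43 in thoracic SCD arrays against 5.94 to 6.05 in abdominal SCD arrays, and its part in the Itgb1bp2 difference was not tested.

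Marker levels also differed between segments. The mean of 10 smooth muscle markers was 9.14 to 9.32 in thoracic SCD arrays against 8.28 to 8.90 in abdominal SCD arrays. With that mean as a covariate, a setting added after the data were seen, 0 of the 40 and 58 of all genes were called. Itga8 was then at -0.02, Itgb5 at 0.03, Itga2 at -0.55, Itgb8 at -0.81, Itga9 at 0.44 and Itgb1bp2 at 0.64, none called. The smooth muscle mean did not overlap between the segments, so this fit cannot separate the marker mean from the segment or sort these genes by it. Without the 5 abdominal arrays rich in T and NK cell markers 5 of the 40 were called and Itga8 was at 0.59 (adjusted p = 0.0104), and Itgb5 was at 0.52 (0.0691). The Itgb8, Itga2, Itga9 and Itgb1bp2 calls held in every leave-one-out fit. The Itga8 call was lost in 7 of these, the Itgb5 call in 5 and the Lamc3 call in 3. Leaving out abdominal SCD array 3, thoracic SCD array 1 or thoracic SCD array 4 left the calls of those 4 genes alone. Other markers were lower in the thoracic aorta, as Itga2 and Itgb8 were. Of 10 sympathetic neuron and chromaffin markers 9 were lower, with means of 5.86 to 6.0 in thoracic SCD arrays against 7.80 to 9.39 in abdominal SCD arrays. Of 7 Schwann cell markers 3 were lower, with means of 6.51 to 6.67 in thoracic SCD arrays against 7.15 to 7.42 in abdominal SCD arrays. Of 4 lymph node stroma markers 1 was lower, with means of 6.20 to 6.90 in thoracic SCD arrays against 7.07 to 9.76 in abdominal SCD arrays. The part of these markers in the Itga2 and Itgb8 differences was not tested.

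**Figure D4:**
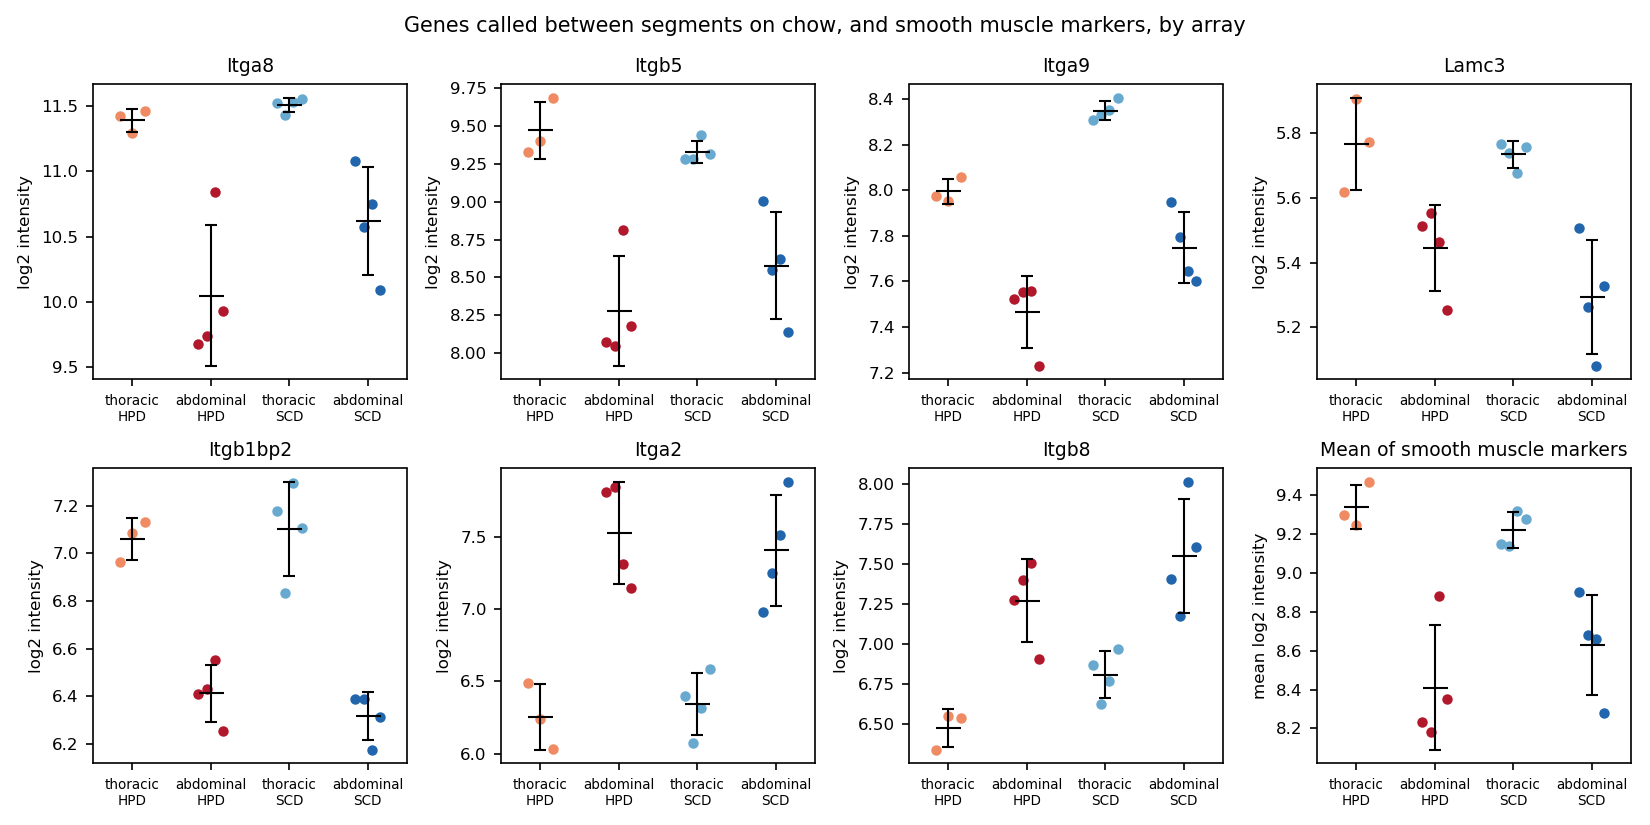
Log2 intensity per array of the 7 genes called between segments on chow, and the mean of 10 smooth muscle markers in the last panel, with group mean and SD as black marks. Thoracic arrays lie above abdominal arrays of the same diet for Itga8, Itgb5, Itga9, Lamc3, Itgb1bp2 and the smooth muscle mean, and below them for Itga2 and Itgb8.

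On HPD 15 of the 40 genes were called between segments, where 13.8% of all genes were, 7.57% higher and 6.25% lower in the thoracic aorta. The 11 higher genes were Itga8 (1.34 ± 0.239), Itgb5 (1.19 ± 0.19), Itgbl1 (0.86 ± 0.196), Itga5 (0.67 ± 0.169), Itgb1bp2 (0.65 ± 0.106), Lamb2 (0.65 ± 0.143), Itga9 (0.53 ± 0.0945), Lama4 (0.48 ± 0.128), Lama2 (0.37 ± 0.11), Itgb3 (0.35 ± 0.11) and Itgb1 (0.34 ± 0.0783). Itgb1 encodes the beta1 subunit common to the collagen and laminin receptors. Itgb3 encodes beta3, and Itgbl1 a secreted protein with integrin-like repeats. Thoracic arrays lay wholly higher for 15 of the 40 genes and wholly lower for 4, against 13.7% and 10.1% of all genes. Lower by the test were Itga4 (-1.77 ± 0.493), Itga2 (-1.28 ± 0.211), Itgal (-1.01 ± 0.303) and Itgb8 (-0.80 ± 0.171). Lama4 lay at 9.48, 9.48 and 9.40 in thoracic HPD arrays against 9.07, 8.74, 9.27 and 8.82 in abdominal HPD arrays, and at 0.07 ± 0.119 between segments on chow. Itgb5 lay at 9.33, 9.40 and 9.69 in thoracic HPD arrays against 8.07, 8.04, 8.82 and 8.18 in abdominal HPD arrays.

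Marker levels moved with the HPD differences too. The mean of smooth muscle markers was 9.25 to 9.47 in thoracic HPD arrays against 8.18 to 8.88 in abdominal HPD arrays, with 10 of 10 markers higher. The T and NK cell mean was 5.63 to 5.86 against 6.18 to 8.08 in the same order, with 11 of 13 markers lower. Without the 5 arrays rich in those markers 1 of the 40 was called, Itgb8 at -1.03 (adjusted p = 0.0348), and abdominal HPD array 3 then stood alone in its group, its spread assumed to be that of the other groups. With a lymphocyte marker mean as covariate 1 was called, Itgb5 at 0.56 (adjusted p = 0.0486), and with the smooth muscle mean 0, in fits that called 323 and 11 of all genes. Itga4 and Itgal turned to 0.06 and 0.10 under the lymphocyte covariate. That covariate joins the T and NK with the B and plasma cell markers. The latter averaged 5.55 to 5.66 in thoracic HPD arrays against 5.91 to 7.7 in abdominal HPD arrays. None of these means overlapped between the HPD segments, nor did the smooth muscle mean. So these fits cannot separate the marker means from the segment or sort these genes by them. Leaving out thoracic HPD array 1 left 9 calls. Over the 15 leave-one-out fits the Itgb3 call was lost in 9 (adjusted p up to 0.206), the Itgal call in 7, the Itga4 and Lama2 calls in 6 each, the Lama4 call in 4, the Itga5 call in 2 and the Itgb1 call in 1. Of 6 platelet markers 4 were higher in the thoracic aorta. The mean of the 6 was 7.37 to 7.69 in thoracic HPD arrays against 6.5 to 6.84 in abdominal HPD arrays. The 6 include the member Itga2b, which was not called. It lay at 6.14 to 6.37 in thoracic HPD arrays against 5.83 to 6.17 in abdominal HPD arrays. The part of the platelet markers in the Itgb3 difference was not tested. Also higher in the thoracic aorta were 6 of 10 fibroblast, 5 of 10 adipocyte and 6 of 10 brown adipocyte markers, and lower were 10 of 10 sympathetic neuron and chromaffin markers. With the adipocyte and brown adipocyte means as covariates 0 of the 40 and 14 of all genes were called. The part of the fibroblast and the neuronal markers was not tested.

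Partners of these receptors were read from 3 lists. Alternative fits were read for the 40 members only, so how far the partner calls hold was not examined. The fit with adipocyte covariates called 0 of all genes for the abdominal diet. The part of the fibroblast, adipocyte, lymphocyte and other markers in the partner differences was not tested. Of 18 basement membrane and laminin-binding genes 4 were lower on HPD in the abdominal aorta and 0 higher, where 5.06% of all genes were lower and 1.95% higher. The 4 were Dag1, the dystroglycan laminin receptor (-0.76 ± 0.113, adjusted p = 0.000683), Bcam, a laminin alpha5 receptor (-0.54 ± 0.0997), Hspg2, perlecan (-0.41 ± 0.108), and Nid2, a nidogen (-0.51 ± 0.137). All 18 changes were below 0 with a median of -0.25. In the thoracic aorta 0 of 18 passed, with a median of -0.05. Between segments on chow 3 of 18 were higher in the thoracic aorta (Col4a5, Col4a6 and Sgcb), where 1.76% of all genes were. On HPD 8 of 18 were higher, where 7.57% of all genes were.

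Of 21 adaptors and activators that link integrins to actin, 2 were lower on HPD in the abdominal aorta and 0 higher. That is 9.52% of the list against 7.01% of all genes called in either direction, so near the background, and both are given as single genes, Vcl, vinculin (-0.58 ± 0.109, adjusted p = 0.00375), and Cd151, a tetraspanin partner of laminin-binding integrins (-0.46 ± 0.0892). In the thoracic aorta 0 of 21 passed. On chow 4 of 21 were called, where 4.78% of all genes were. Zyx and Actn1, which bind actin at adhesions, were higher in the thoracic aorta by 0.59 and 0.53, and Parva and Cd47 were lower, at -0.76 and -0.40. Of 18 ligands 1 was lower and 1 higher on HPD in the abdominal aorta, 11.1% of the list against 7.01% of all genes. Postn, periostin, was lower (-0.80 ± 0.104, adjusted p = 0.000248) and Vcam1, the alpha4 integrin ligand, was higher (0.72 ± 0.157, adjusted p = 0.0105). In the thoracic aorta 1 of 18 was higher on HPD and 0 were lower, where 1.39% of all genes were higher. It was Thbs1, thrombospondin-1, at 0.89 ± 0.19 (adjusted p = 0.0225). Between segments on chow 3 of 18 were higher in the thoracic aorta and 1 lower, where 1.76% and 3.02% of all genes were. Npnt, nephronectin, the ligand of alpha8 beta1, was higher in the thoracic aorta by 1.09 ± 0.263 (adjusted p = 0.0261), as its receptor subunit Itga8 was. The others higher were Ccn2, a matricellular growth factor (0.86 ± 0.192), and Fbln5, fibulin-5 of elastic fibres (0.68 ± 0.163). Edil3, which binds alphav integrins, was lower there, at -1.13 ± 0.146 (adjusted p = 0.000464).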

How the data were processed

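The deposited table holds 1 log2 intensity per probe set and array for 15 arrays of aortic total RNA. RMA and Partek are named, without versions, in the submitters' processing notes, and the log base is not stated there: it was inferred from the values, which run from 1.381 to 13.33. Array medians were 5.778 to 5.84. Of 41345 probe sets 23521 named 1 gene, 1814 several and 16010 none in the platform annotation, and the brightest probe set per gene left 22180 genes. All 40 members matched a RefSeq gene by its gene identifier, and Itgav and Itgb1bp1 had a second probe set.

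The 4 group means were fitted in R 4.3.3 with limma 3.58.1 (eBayes with a trend in the prior, 11 residual degrees of freedom) and 6 contrasts were tested, two-sided, with Benjamini-Hochberg adjustment over all genes. Plots used matplotlib 3.10.9. Any member could be named, and of the partner lists up to 4 called genes per contrast. The members, lists and tests were chosen with earlier results of these data known, so they support nothing independently. Replicate numbers were not treated as pairs. Scan dates and slides were not used here, so batches were not looked for. P-values measure the spread between these arrays, which the labels call biological replicates. The fit was tested on simulated data with independent noise for each gene and array. Such data hold no tissue content shared between genes, so the test cannot show how the calls behave under it. Alternatives were the variance prior, a filter at the 30th percentile, fits of only the groups compared, quantile or median scaling, array weights, a replicate block, probe set means, lymphocyte or adipocyte covariates, an adjusted p under 0.1 and leaving out each array. Added after the data were seen were a smooth muscle covariate and fits without 5 abdominal arrays high in T and NK cell markers, without the other 3, or without abdominal HPD arrays 3 and 4.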

Additional observations from a re-analysis of the deposited data

Results flagged for a closer look

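In 6 of 120 tests of a gene within a group of 4 arrays, 1 array lay far from the other 3, where chance gives about 6. Itga1 was at 9.885 in abdominal HPD array 3, above 9.52 to 9.553 in the others. Itga9 was at 7.229 in abdominal HPD array 4, below 7.523 to 7.557 in the others. Itgam was at 6.22 in abdominal HPD array 3, below 6.712 to 6.741. Lama2 was at 7.917 in abdominal SCD array 4, below 8.049 to 8.07. Lama5 was at 5.914 in abdominal SCD array 3, below 6.013 to 6.024. Itgb4 was at 5.929 in thoracic SCD array 2, below 6.165 to 6.186.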

How the results depend on the processing

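The abdominal diet count of 4 became 2 (Lama4 and Itga6) in a fit of only the groups compared, 2 (Lama4 and Itga1) with the lymphocyte covariate, 0 with the adipocyte covariates, and 0 without the 5 arrays high in T and NK cell markers (abdominal HPD then has 1 array); leaving out 1 array gave 1 to 8. It was 1 (Lama4) without abdominal HPD array 2, HPD array 4 or SCD array 1, and 2 (Lama4 and Itga1) without SCD array 2. Over all genes the abdominal diet calls ran from 891 to 2249 with 1 array left out, against 1554 with every array. The thoracic count of 0 became 1 (Itga9) with the filter on dim genes, only the groups compared, quantile scaling, array weights, the replicate block, the lymphocyte covariate or an adjusted p under 0.1, and 0 to 1 with 1 array left out. The averaged count of 6 became 0 with the adipocyte covariates, 1 (Lama2, 0.27 higher) without the 5 arrays, and 5 to 9 with 1 array left out. Without abdominal HPD arrays 3 and 4 the abdominal count was 6, with 2 of the 4 kept (Lama4, Itga1), Itga8 and Lamb2 added lower and Itga4 and Itgal higher, and the averaged count was 6 with 3 of 6 kept (Itga11, Itga6 and Itgb3bp lost). That fit called 1732 of all genes for the abdominal and 2506 for the averaged diet, against 1554 and 2376 with every array. The difference between the diet changes stayed at 0 called, 0 to 0 with 1 array left out. The chow segment count of 7 became 15 without the 3 abdominal arrays low in T and NK cell markers. All genes called rose from 1061 to 1976 there. The chow count was 4 with the adipocyte covariates, 0 with the smooth muscle covariate, and 4 to 9 with 1 array left out (500 to 1369 of all genes). The HPD segment count of 15 became 1 with the lymphocyte covariate, 0 with the adipocyte covariates, 1 without the 5 arrays, 0 with the smooth muscle covariate, and 9 to 21 with 1 array left out. Over all genes the HPD segment calls ran from 1695 to 4025 with 1 array left out, against 3067 with every array. With the replicate block the counts were 4, 1, 6, 0, 7 and 14, and Itgal was the call lost on HPD. Of 14 same-number pairs 4 correlated above 0.1 in their deviations. Pairs of thoracic and abdominal arrays on the same diet lay at 0.0308 to 0.122. Arrays of different number were not compared, so whether the numbers pair the arrays cannot be told.

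Signs turned with the adipocyte covariates for Itga1 (abdominal 0.39 ± 0.2, average 0.33 ± 0.166) and Itga6 (abdominal 0.0448 ± 0.29). On HPD segments they turned for Itga4 (0.44 ± 0.772) and Itgal (0.34 ± 0.476), and none of these values was called. The brown adipocyte mean did not overlap between the groups compared, so these fits cannot separate it from diet or segment. Signs turned on HPD segments with the lymphocyte covariate for Itga4 (0.0623 ± 0.166) and Itgal (0.10 ± 0.123), neither called. With the smooth muscle covariate they turned there for Itga4 (0.83), Itgal (0.68), Itga8 (-0.0843), Itgbl1 (-0.23) and Lama2 (-0.16), and on chow for Itga8 (-0.0238). The lymphocyte and smooth muscle marker means did not overlap between the HPD segments, so these fits cannot separate them from segment. Lama2 was at -0.00407 without the 5 arrays. Over all genes the adipocyte covariates left 0 calls for the abdominal and averaged diet, 633 for chow and 14 for HPD segments, and the smooth muscle covariate 58 and 11 for chow and HPD segments; the cause of the moves was not tested. No array gives signal over background, so dim genes such as Itgb2l and Itgad may lie near it. Among called genes Itga11 (mean 5.72, 41.8th percentile) and Lamc3 (5.55, 37.6th) lay below the array medians of 5.778 to 5.84, so this limit covers them too.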
